A study of Homo sapiens with 16 samples.

Results

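Transcript levels of 10 tight junction genes were followed in a pair of established human lines of clear cell renal carcinoma, 786-O and A498. The genes were taken by name from the 60606 gene names of each deposited count table: the claudins CLDN1, CLDN2, CLDN3, CLDN4, CLDN11 and CLDN12, occludin (OCLN), tricellulin (MARVELD2), junctional adhesion molecule A (F11R) and the scaffold ZO-1 (TJP1). All 10 were found. The study asked how loss of SETD2, the enzyme that trimethylates lysine 36 of histone H3, affects the cells and their response to A1331852, an inhibitor of the anti-apoptotic protein BCL-XL. The 786-O cells were SETD2 wild type (WT) or SETD2 knockout (KO, labelled null), and each genotype was kept for 72 h in DMSO, the vehicle, or in 100 nM A1331852, giving 4 groups of 3 libraries. A498 cells were labelled SETD2 deficient or SETD2 add-back, had no treatment, and gave 2 libraries each. Whether the KO cells were 1 clone, or how SETD2 was returned to A498, was not given in the sources used here.

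Tight junctions seal the space between neighbouring epithelial cells. Claudins form the strands of the seal and set which solutes pass: CLDN1, CLDN3 and CLDN4 are known as barrier-forming, while CLDN2 forms a pore for small cations and water and is typical of the proximal tubule of the kidney, the segment from which this carcinoma is thought to arise. OCLN and MARVELD2 are 4-pass membrane proteins of the same family, the first along the whole junction and the second at corners where 3 cells meet. F11R is an immunoglobulin-like adhesion receptor, and TJP1 ties the membrane proteins to the actin cytoskeleton. These are bulk libraries of RNA, so fewer cells with a transcript and less transcript per cell cannot be told apart, and no protein or junction was measured.

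Libraries held 14172118 to 36037616 counts. By the labels, the 6 A1331852 libraries and replicate 3 of both DMSO groups were of batch 1, replicates 1 and 2 of the DMSO groups were of batch 2, and A498 was batch 3. Replicates 1 and 2 of the DMSO groups were far closer to each other (mean chi-square per gene of 3.72 in WT and 3.16 in KO) than to replicate 3 (92.1 to 131). WT A1331852 replicate 3 stood apart from the other libraries of its group (95.1 and 65.8, against 24.6 between those). Some results that rest on it are given with and without it, but those of F11R and of the claudin mix only with it. SETD2 itself was at 65.0 to 70.9 CPM (the count relative to the TMM-scaled total of its library) in WT DMSO and 27.9 to 29.99 in KO DMSO, a log2 change of -1.21 ± 0.18 (SE; edgeR adjusted p = 7.39e-04). In KO A1331852 it was at 29.4, 47.6 and 52.5 CPM, below the 63.0 to 71.2 of WT A1331852 (-0.65 ± 0.18, edgeR adjusted p = 0.0168). In A498 the total SETD2 count did not separate the libraries labelled deficient (41.1 and 59.4 CPM) from those labelled add-back (44.9 and 53.8 CPM; 0.00 ± 0.17, edgeR adjusted p = 0.991), so every direction drawn in A498 rests on the labels. Of 11 markers of renal carcinoma and tubular epithelium, 9 were at 1 CPM or more in each group, while 5 endothelial markers summed to at most 2.58 CPM and 6 leukocyte markers to at most 2.64. The 5 fibroblast markers summed to 4.15 to 14.5 CPM in 786-O, 50.1 to 66.6 in A498 deficient and 44.2 to 48.6 in add-back libraries. In A498 nearly all of it was COL1A1 (means of 57.7 and 44.8 CPM), with 4 of the 5 under 1 CPM in deficient and 3 in add-back cells. The 6 myelin or Sertoli markers summed to 60.5 to 134 CPM, with 3 of them under 1 CPM in each group. The part of these marker genes in the results was not tested.

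The promoters of CLDN1 and CLDN2 are shown because these claudins were called both in A498 and in a 786-O comparison, and their sequences are of different kinds. Each line holds the 250 bases before the first start of transcription in RefSeq (GRCh38.p14), read 5′ to 3′ on the gene's strand, at chr3:190322447-190322696 on the minus strand for CLDN1 and chrX:106899914-106900163 on the plus strand for CLDN2. Capitals mark GC boxes (GGGCGG or its complement CCGCCC).
CLDN1: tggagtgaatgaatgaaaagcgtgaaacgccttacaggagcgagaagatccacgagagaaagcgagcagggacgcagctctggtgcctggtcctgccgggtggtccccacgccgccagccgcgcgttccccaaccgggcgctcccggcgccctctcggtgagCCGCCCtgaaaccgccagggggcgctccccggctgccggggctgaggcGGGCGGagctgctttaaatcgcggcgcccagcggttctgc
CLDN2: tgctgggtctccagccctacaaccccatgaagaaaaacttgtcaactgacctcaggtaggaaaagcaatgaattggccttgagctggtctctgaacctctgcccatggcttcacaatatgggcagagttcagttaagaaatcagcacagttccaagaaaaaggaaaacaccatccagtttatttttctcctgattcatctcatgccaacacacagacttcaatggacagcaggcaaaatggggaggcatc
The CLDN1 window is 68.8% G or C with 28 CpG pairs and 2 GC boxes, whereas that of CLDN2 is 46.0% G or C and holds no CpG pair and no GC box. Over 35116 RefSeq windows of this length the median was 58.0% and 11 CpG, and 42.6% held a GC box on either strand. The E-box CAGGTG (or CACCTG), the core letters bound by SNAI and ZEB repressors, was in 17.5% of all windows and in neither of these. Windows were found for 9 of the 10 genes, and of the 9 only OCLN and TJP1 had an E-box in one. A match or its lack describes these letters only.

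Set side by side per exon length (FPKM), the 10 genes spanned a wide range in 786-O WT cells in DMSO. CLDN4 was the most abundant member at 30.4 ± 3.28 FPKM (SD, n = 3), followed by CLDN1 at 16.9 ± 7.60, TJP1 at 14.8 ± 2.12 and F11R at 11.9 ± 1.81. CLDN12 (7.48 ± 1.94) and CLDN2 (6.63 ± 1.82) came next, then MARVELD2 at 0.977 ± 0.142 and CLDN3 at 0.322 ± 0.119. CLDN11 and OCLN were at 0.0231 and 0.00856 FPKM. Of their exon bases F11R shares 36.6%, CLDN12 17.6% and CLDN11 15.8% on the same strand with other gene models. The levels of these genes and their places in the order are therefore uncertain. In A498 add-back cells CLDN1 led with 19.98 ± 0.314 FPKM (SD, n = 2), ahead of CLDN4 (11.5 ± 0.544) and TJP1 (11.2 ± 0.468), while CLDN2 was at only 0.0948. Line and batch 3 cannot be told apart, so these levels are not tested against each other.

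The claudin mix differed in the same way. Of the summed FPKM of the 6 claudins, CLDN4 made up 49.6% in WT DMSO, 65.9% in KO DMSO, 44.5% in WT A1331852 and 62.2% in KO A1331852, but 22.5% in A498 deficient and 28.5% in add-back cells. CLDN1 made up 60.6% in A498 deficient and 49.7% in add-back cells, and between 11.3% (KO DMSO) and 26.4% (WT DMSO) in 786-O. The pore-forming CLDN2 was 17.7% of the claudin FPKM in WT A1331852 and 3.04% in KO A1331852. The sum itself was 61.7 ± 10.3 FPKM in WT DMSO, 70.4 ± 0.92 in KO DMSO, 82.3 ± 27.3 in WT A1331852 and 139 ± 21.3 in KO A1331852 (SD, n = 3). In A498 it was 50.5 ± 1.58 in deficient and 40.2 ± 0.851 in add-back cells (SD, n = 2). Other claudins lie outside this sum and these shares. In A498 deficient and add-back cells CLDN23 was at 8.86 and 6.55 FPKM and CLDN15 at 4.22 and 6.74 FPKM. In 786-O CLDN15 was at 4.54 FPKM in WT DMSO, 6.40 in KO DMSO, 4.61 in WT A1331852 and 6.59 in KO A1331852. CLDN2 was at 6.63, 7.01, 13.8 and 4.22 FPKM in these groups, so its share would be smaller with CLDN15 in the sum.

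**Figure D1:**
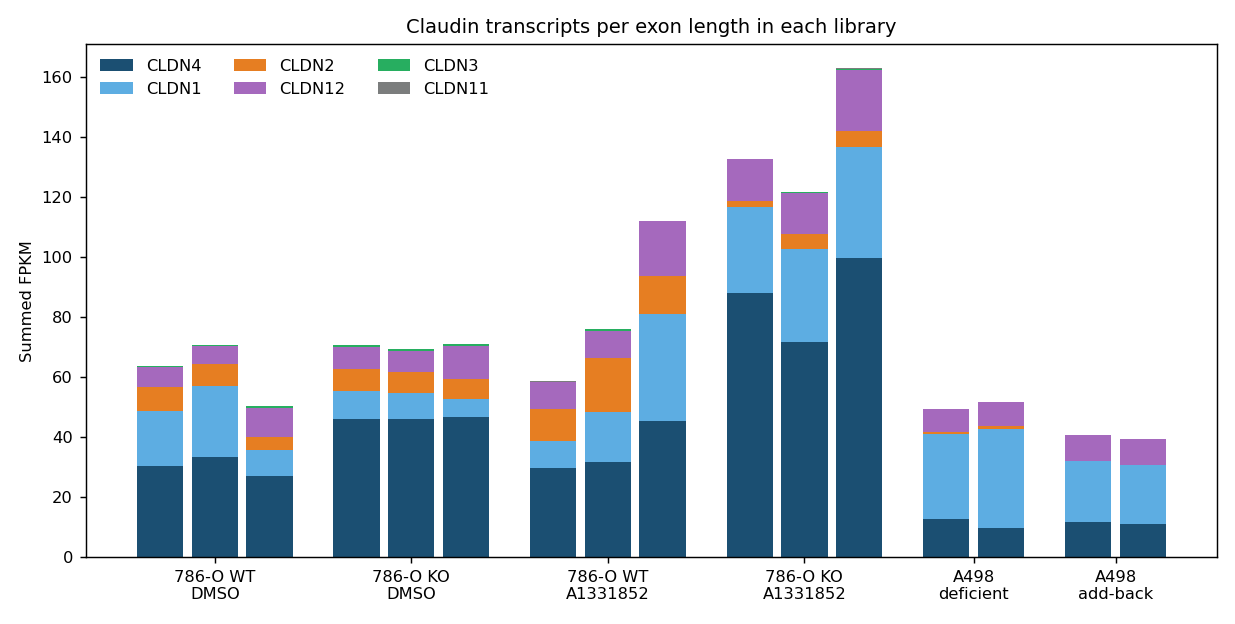
Stacked bars of claudin level in FPKM (y axis, linear from 0), 1 bar per library, grouped by line, genotype and treatment (x axis), with 1 colour per claudin. CLDN4 takes 62.2% of the KO A1331852 bars on average, CLDN1 takes 60.6% of the A498 deficient bars, and CLDN2 is a visible band in 786-O but at most a thin line in A498.

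Loss of SETD2 in DMSO came with more CLDN4 and less MARVELD2 in 786-O. Changes are log2 fold changes ± SE from edgeR's quasi-likelihood test on counts, with batch as a term and p-values adjusted by Benjamini-Hochberg over all genes tested, and an adjusted p under 0.05 is a call. Of the 10 members 8 had enough counts to be tested in 786-O, all but CLDN11 and OCLN. In KO against WT cells in DMSO 2 of the 8 were called, 1 higher and 1 lower, beside 18.5% of all 16260 genes tested (8.29% higher and 10.2% lower). The median change of the 8 was 0.11, beside -0.02 over all genes.

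CLDN4, a barrier claudin of the distal nephron (chr7:73799542-73832690, plus strand, GRCh38), was at 143, 158 and 127 CPM in WT DMSO replicates 1 to 3 and at 217, 217 and 219.6 CPM in KO DMSO. The groups did not overlap, and the KO libraries were nearly equal to one another. The change was 0.63 ± 0.17 (95% CI 0.25 to 1.00, edgeR adjusted p = 0.0238). Leaving out any 1 of the 6 DMSO libraries took the adjusted p to between 0.0575 and 0.147, with a change of 0.54 to 0.69, and without a batch term it was 0.62 (adjusted p = 0.0569). Within batch 2 alone, with 2 libraries a genotype, it was 0.58 (edgeR adjusted p = 1.16e-09). Those replicates lay very close to each other (mean chi-square of 3.72 in WT and 3.16 in KO), so this p-value measures only their narrow spread.

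MARVELD2, which organises tricellular corners (chr5:69415065-69444330, plus strand, next to OCLN at chr5:69492292-69558104), was at 5.31, 4.45 and 5.96 CPM in WT DMSO and 2.08, 2.44 and 3.99 CPM in KO DMSO. Every KO library was below every WT library. The change was -0.93 ± 0.25 (95% CI -1.47 to -0.39, edgeR adjusted p = 0.0208), and -1.08 in batch 2 alone (adjusted p = 1.50e-05). The latter p-value again measures only the narrow spread of the batch 2 replicates. The call was lost without replicate 1 or 2 of either group (adjusted p of 0.0604 to 0.114) and without a batch term (0.0998).

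CLDN1, the claudin required for the skin barrier (chr3:190305707-190322446, minus strand), was at 66.4, 85.7 and 31.3 CPM in WT DMSO and 33.6, 30.9 and 21.9 CPM in KO DMSO. WT replicate 3, of batch 1, fell among the KO libraries of batch 2, while within each batch KO was lower. The change of -0.998 ± 0.37 did not pass the test (edgeR adjusted p = 0.0842). With a replicate block within treatment it did (-0.997, adjusted p = 0.0155), as in batch 2 alone (-1.19, adjusted p = 7.01e-11), and over all alternatives the adjusted p ran from 7.01e-11 to 0.254. For batch 2 alone the p-value measures only the narrow spread of its replicates.

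The other members tested in this comparison did not pass. CLDN2 (chrX:106900164-106930861, plus strand) was at 27.7, 24.4 and 15.7 CPM in WT DMSO and 24.8, 24.3 and 22.7 CPM in KO DMSO, a change of 0.12 with a 95% interval of -0.53 to 0.77. TJP1 (chr15:29699367-29968915, minus strand) was at 140.2 to 185 CPM in WT and 164 to 193 CPM in KO (0.10, 95% CI -0.24 to 0.44), and F11R at 53.5 to 70.5 and 47.9 to 58.5 CPM (-0.19, 95% CI -0.72 to 0.35). CLDN12, a claudin linked to calcium passage, was at 42.0 to 65.2 and 45.8 to 75.2 CPM (0.18, 95% CI -0.36 to 0.72). These intervals leave room for changes of about the size seen for CLDN4, except for TJP1. CLDN3, a barrier claudin encoded next to CLDN4 on chromosome 7, had 28 counts in the 3 WT and 65 in the 3 KO libraries, 0.304 to 0.583 against 0.493 to 0.866 CPM (0.90 ± 0.46, edgeR adjusted p = 0.202).

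**Figure D2:**
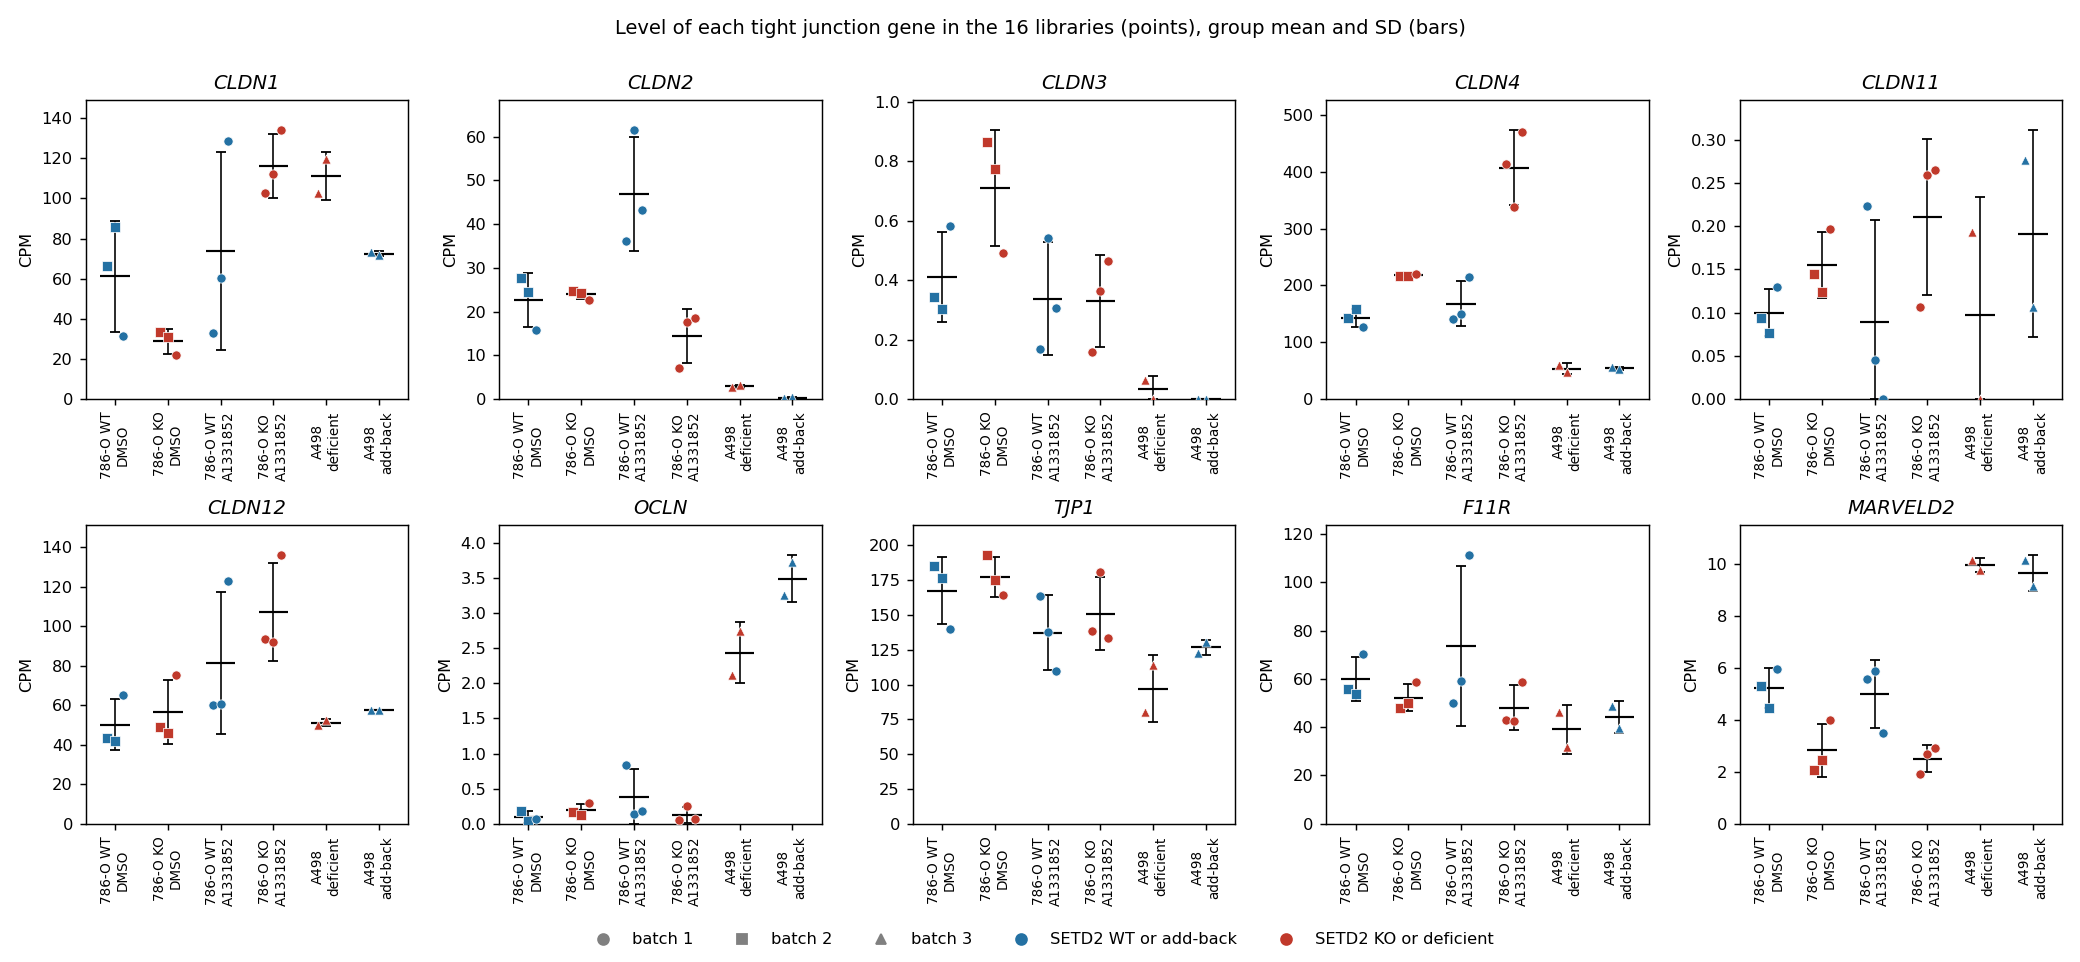
Level of each of the 10 genes in CPM (y axis, linear from 0, scaled per gene) in the 6 groups (x axis). Points are libraries, with the batch as marker shape, and bars are the group mean with its SD. CLDN4 in KO A1331852 lies at 337 CPM or above, clear of all other groups, and OCLN is at 2.13 CPM or above in the A498 libraries and at most 0.837 CPM in 786-O.

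In A1331852 CLDN4 was higher and CLDN2 and MARVELD2 were lower in KO than in WT cells. Of the 8 members tested 3 were called, 1 higher and 2 lower, beside 28.2% of all genes (13.2% higher and 15% lower). The median change of the 8 was 0.01, beside -0.01 over all genes. With a replicate block within treatment 6 were called, CLDN1 and CLDN12 higher and F11R lower being added.

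CLDN4 was at 140.3, 149.8 and 214 CPM in WT A1331852 and 415, 337 and 469.6 CPM in KO A1331852. The lowest KO library was above the highest WT library, which was the replicate 3 that stood apart. The change was 1.28 ± 0.17 (95% CI 0.90 to 1.65, edgeR adjusted p = 2.81e-04). It kept its call under all 17 alternatives, at 1.17 to 1.49 and adjusted p of at most 0.00584.

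CLDN2 moved the other way. It was at 36.2, 61.5 and 43.2 CPM in WT A1331852 and at 7.18, 17.5 and 18.5 CPM in KO A1331852. No KO library reached a WT library. The change was -1.71 ± 0.31 (95% CI -2.38 to -1.04, edgeR adjusted p = 0.00177), a 3.27-fold lower level, and it too kept its call under all 17 alternatives (-1.98 to -1.38, adjusted p of at most 0.0138).

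MARVELD2 was at 5.58, 5.90 and 3.48 CPM in WT A1331852 and 1.91, 2.70 and 2.92 CPM in KO A1331852, again without overlap. The change of -0.999 ± 0.26 (95% CI -1.56 to -0.44, edgeR adjusted p = 0.0130) was close in size to that in DMSO, and the difference of the 2 genotype effects was -0.07 with a 95% interval of -0.84 to 0.70. Its call was lost without WT A1331852 replicate 2 (-0.86, adjusted p = 0.0530), in batch 1 alone (-0.99, adjusted p = 0.0569) and without a batch term (-0.99, adjusted p = 0.0502).

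CLDN1, CLDN12 and F11R turned on WT A1331852 replicate 3 and on the block. CLDN1 was at 33.0, 60.2 and 128 CPM in WT and 103, 112 and 134 CPM in KO. The replicate 3 of WT alone reached the KO range. The change was 0.66 ± 0.36 (edgeR adjusted p = 0.202), 1.32 without that library (adjusted p = 0.00142) and 0.86 with the block (adjusted p = 0.0225), and the adjusted p ran from 6.36e-04 to 0.457 over the alternatives. CLDN12 was at 60.01, 60.9 and 123 CPM in WT and 93.3, 92.1 and 136 CPM in KO, a change of 0.40 ± 0.25 (adjusted p = 0.258), 0.82 without that library (adjusted p = 0.00190) and 0.46 with the block (adjusted p = 0.00867; 4.63e-04 to 0.608 over the alternatives). F11R was at 50.03, 59.0 and 111 CPM in WT and 42.8, 42.4 and 58.8 CPM in KO. Its change was -0.61 ± 0.25 (adjusted p = 0.0852), -0.54 with the block (adjusted p = 0.00764), -0.82 without WT replicate 1 (adjusted p = 0.0237) and -0.19 at its smallest, and the adjusted p ran from 0.00200 to 0.367. Of F11R exon bases 36.6% are shared on the same strand with an unnamed overlapping gene model (ENSG00000270149), so its counts are uncertain, as are those of CLDN12, with 17.6% shared. TJP1 was at 109.7 to 164 CPM in WT and 133 to 181 CPM in KO (0.14, 95% CI -0.21 to 0.48), and CLDN3 had 20 and 17 counts in all.

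**Figure D3:**
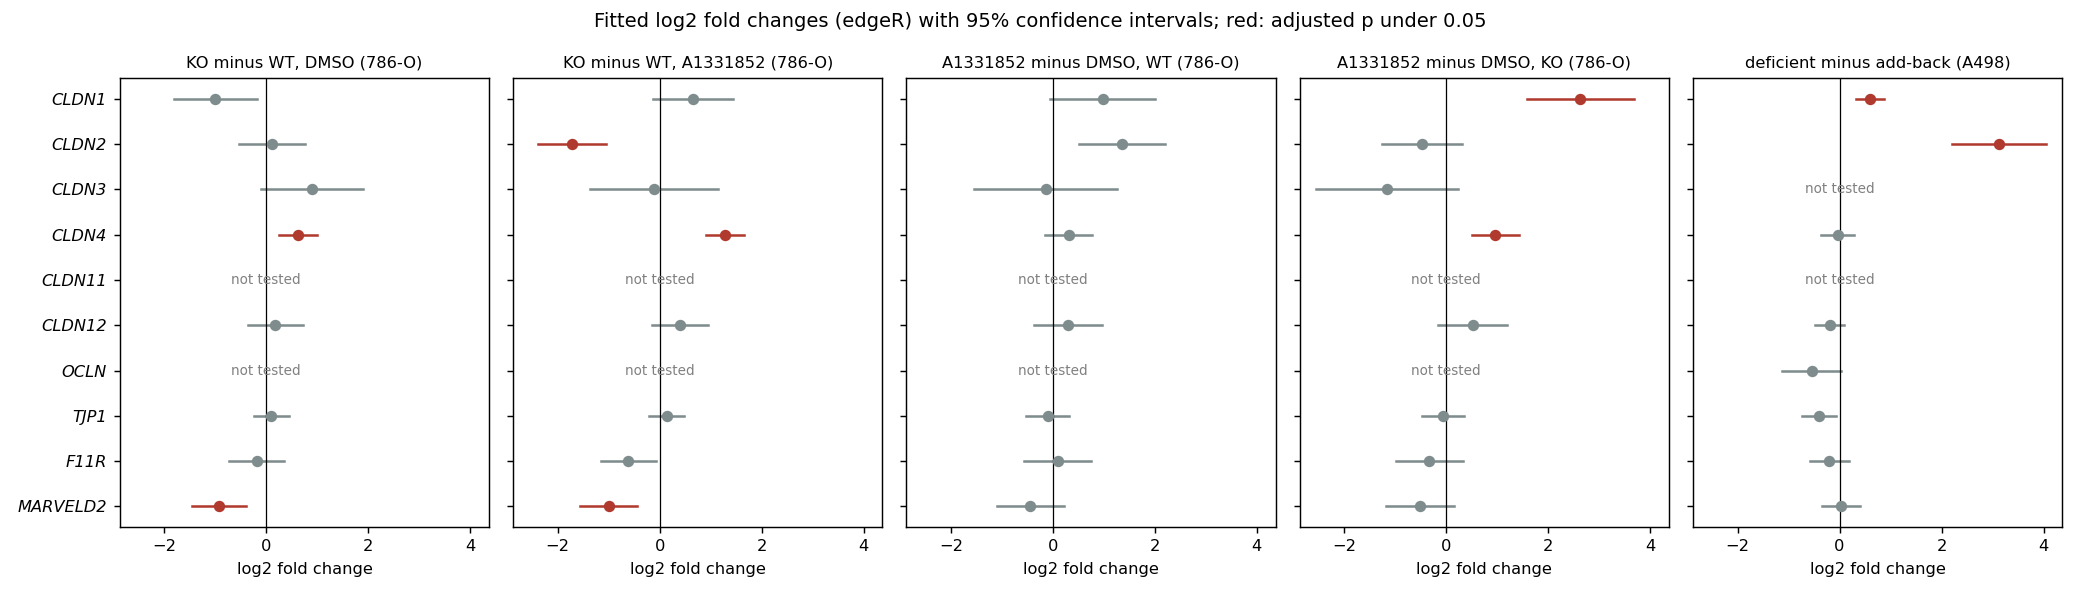
Fitted log2 fold change of each gene (x axis, same scale in every panel) with its 95% confidence interval in 5 comparisons (panels). Red marks an adjusted p under 0.05, grey the other genes tested. CLDN2 lies at -1.71 for KO minus WT in A1331852 and at 3.13 for deficient minus add-back in A498, while no gene is red for A1331852 in WT cells.

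CLDN1 and CLDN4 were higher with the inhibitor in KO cells. In KO cells, A1331852 against DMSO, 2 of the 8 members tested were called, both higher, beside 13.5% of all genes (6.46% higher and 7.08% lower). The median change of the 8 was -0.20, beside 0.01 over all genes. Most DMSO libraries were of batch 2 and every A1331852 library was of batch 1, which leaves 1 DMSO library per genotype in the same batch.

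CLDN1 went from 33.6, 30.9 and 21.9 CPM in KO DMSO to 103, 112 and 134 CPM in KO A1331852. The groups were far apart, also against the DMSO library of the same batch (21.9 CPM). The change was 2.63 ± 0.48 (95% CI 1.58 to 3.68, edgeR adjusted p = 0.00577), which is 6.19-fold as fitted with the batch term. Without that adjustment the group means were 28.8 and 116 CPM, a smaller fold. In batch 1 alone it was 2.41 (adjusted p = 0.165). CLDN4 went from 217, 217 and 219.6 to 415, 337 and 469.6 CPM, a change of 0.96 ± 0.21 (95% CI 0.50 to 1.43, edgeR adjusted p = 0.0127) with no overlap. Its value was 0.89 in batch 1 alone (adjusted p = 0.284) and 1.12 without KO DMSO replicate 3 (adjusted p = 0.0898).

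CLDN2 in KO cells was at 24.8, 24.3 and 22.7 CPM in DMSO and 7.18, 17.5 and 18.5 CPM in A1331852. Each A1331852 library was lower, but the change of -0.48 ± 0.36 did not pass (95% CI -1.26 to 0.31, edgeR adjusted p = 0.411). CLDN12 (0.52, 95% CI -0.15 to 1.19), MARVELD2 (-0.51, -1.18 to 0.16), F11R (-0.33, -0.99 to 0.32), TJP1 (-0.07, -0.48 to 0.35) and CLDN3 (-1.15, -2.54 to 0.24) did not pass either.

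In WT cells edgeR called none of the 8 members under A1331852, beside 0.141% of all genes (0.0369% higher and 0.105% lower, 23 genes in all, with 2080 at an unadjusted p under 0.05). One of the 8 had an unadjusted p under 0.05, DESeq2 called 1 and limma voom 0. That member was CLDN2, at 27.7, 24.4 and 15.7 CPM in DMSO and 36.2, 61.5 and 43.2 CPM in A1331852. All 3 treated libraries were above all 3 controls. The change was 1.35 ± 0.39 (95% CI 0.50 to 2.20, edgeR adjusted p = 0.187), and with DESeq2 1.37 (adjusted p = 0.0220), the adjusted p running from 1.24e-06 to 1.00 over the alternatives. CLDN1 was at 66.4, 85.7 and 31.3 CPM in DMSO and 33.0, 60.2 and 128 CPM in A1331852, ranges that overlapped (0.97 ± 0.48, edgeR adjusted p = 0.419). Without WT A1331852 replicate 3 the change was 0.31 (adjusted p = 0.746). CLDN4 was at 143, 158 and 127 CPM in DMSO and 140.3, 149.8 and 214 CPM in A1331852 (0.31, 95% CI -0.15 to 0.77; 0.10 without that library, adjusted p = 0.874).

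Whether the genotypes responded differently was tested directly, as KO minus WT of the A1331852 response. edgeR called 0 of the 8 members, beside 0.295% of all genes (0.203% higher and 0.0923% lower), with 3 at an unadjusted p under 0.05, 1 call by DESeq2 and 0 by limma voom. CLDN2 had the smallest p: its response differed by -1.83 ± 0.43 (95% CI -2.76 to -0.90, edgeR adjusted p = 0.103). It was called with DESeq2 (adjusted p = 0.00350) and with the block within treatment (-1.89, adjusted p = 0.0114). CLDN1 differed by 1.65 ± 0.52 (adjusted p = 0.244) and with the block by 1.86 (adjusted p = 0.0359), and CLDN4 by 0.65 ± 0.24 (adjusted p = 0.336). Without WT A1331852 replicate 3 all of these were called: CLDN2 at -1.88 (adjusted p = 0.0336), CLDN1 at 2.33 (adjusted p = 0.00314) and CLDN4 at 0.87 (adjusted p = 0.0269). Over the alternatives the adjusted p ran from 4.39e-10 to 1.00 for CLDN2, from 2.64e-10 to 1.00 for CLDN1 and from 0.0189 to 1.00 for CLDN4.

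In A498, CLDN2 and CLDN1 were higher in the libraries labelled deficient. Of the 8 members tested, all but CLDN3 and CLDN11, 2 were called, both higher, beside 30.2% of 15424 genes (15.1% higher and 15.1% lower). The median change of the 8 was -0.12, beside -0.01 over all genes.

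CLDN2 had 41 and 48 counts in the deficient libraries (2.64 and 3.13 CPM) and 4 and 8 counts in the add-back libraries (0.221 and 0.426 CPM). Both levels were under those of every 786-O library, where the lowest was 7.18 CPM. The change was 3.13 ± 0.43 (95% CI 2.22 to 4.04, edgeR adjusted p = 8.90e-05), an 8.74-fold higher level that rests on 12 counts in the lower group. It was called under all 10 alternatives that tested it (2.75 to 3.69, adjusted p of at most 6.00e-04). CLDN1 was at 103 and 119.8 CPM in deficient and 73.3 and 71.7 CPM in add-back libraries, a change of 0.60 ± 0.13 (95% CI 0.31 to 0.88, edgeR adjusted p = 0.00381). With either add-back library left out, which lets the lone sample borrow the spread of the other group, its adjusted p was 0.0555 or 0.0806.

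TJP1 was at 80.1 and 114 CPM in deficient and 123 and 130.5 CPM in add-back libraries. Its change of -0.41 ± 0.15 missed the threshold (edgeR adjusted p = 0.0605) and ran from -0.68 to -0.17 over the alternatives. Some of these leave a single library in a group, so their p-values are not given. OCLN had 33 and 42 counts in deficient and 59 and 70 in add-back libraries (2.13 and 2.74 against 3.26 and 3.73 CPM; -0.55 ± 0.27, edgeR adjusted p = 0.142). CLDN4 was at 59.97 and 46.6 against 55.7 and 52.1 CPM (-0.04, 95% CI -0.36 to 0.28) and MARVELD2 at 10.2 and 9.78 against 10.2 and 9.17 CPM (0.03, 95% CI -0.35 to 0.40). CLDN12 (-0.20, 95% CI -0.48 to 0.09) and F11R (-0.20, 95% CI -0.58 to 0.18) did not pass. CLDN3 had 1 count in the 4 libraries. A count of 0 in both add-back libraries allows up to 0.0813 CPM (3 counts over the group).

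The effect of SETD2 loss was compared between the lines as 786-O in DMSO minus A498, in a fit of all 16 libraries that tested 9 members. CLDN2 was called, the 1 member of 9, beside 13.2% of 17868 genes (6.12% higher and 7.1% lower): its effect was lower in 786-O by -3.04 ± 0.68 (95% CI -4.49 to -1.59, edgeR adjusted p = 0.00851). The call was lost without A498 add-back replicate 1 (-2.64, adjusted p = 0.0718) and with limma voom (-3.03, adjusted p = 0.0528), and the adjusted p ran from 1.39e-09 to 0.0718. CLDN1 differed by -1.63 ± 0.52 (adjusted p = 0.0501). Among the DMSO libraries of 786-O it was lower in KO than in WT within each batch, with a single pair in batch 1. In A498 it was higher in deficient libraries. MARVELD2 differed by -0.99 ± 0.34 (adjusted p = 0.0710) and CLDN4 by 0.63 ± 0.26 (adjusted p = 0.129). For TJP1 (0.48, 95% CI -0.07 to 1.03), F11R (-0.02, 95% CI -0.83 to 0.79), CLDN12 (0.34, 95% CI -0.41 to 1.10) and OCLN (1.30, 95% CI -0.79 to 3.38) no difference was called.

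By order of mean CPM, CLDN4 was highest in KO A1331852, then KO DMSO, and these groups overlapped neither each other nor the rest. WT A1331852 and WT DMSO overlapped, both stood above A498, and the A498 groups overlapped. CLDN2 was highest in WT A1331852, then the overlapping KO and WT DMSO groups, and KO A1331852 overlapped WT DMSO. MARVELD2 was highest in A498, whose groups overlapped, and neighbours among the 786-O groups overlapped in that order. CLDN1, F11R and CLDN11 overlapped between every pair of neighbours. OCLN, at 1 to 15 counts in each 786-O library, was at most 0.837 CPM there and at least 2.13 CPM in A498, which did not overlap, and reads could be shared with its pseudogene OCLNP1. CLDN11, the claudin of myelin and Sertoli cells, had at most 0.276 CPM anywhere.

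Other genes of the junction were taken from lists by function. Of 18 other claudins 4 were tested in 786-O, and CLDN15 was higher in KO in DMSO (0.50 ± 0.13, edgeR adjusted p = 0.0223) and in A1331852 (0.52 ± 0.13), while in A498 it was lower in deficient libraries (-0.70 ± 0.17). CLDN23 was higher in KO in A1331852 only among the calls (0.74 ± 0.17), a difference between treatments that was not called. Of 7 other membrane proteins tested in DMSO 4 were called, beside 18.5% of all genes. CXADR, the coxsackie and adenovirus receptor, was higher in KO by 3.00 ± 0.54, at 0.0311 to 0.713 CPM in WT and 0.693 to 3.15 CPM in KO libraries. These ranges overlapped at low levels, so the size of its change is uncertain. The angulin ILDR2 (-1.30 ± 0.17), the apical polarity protein CRB3 (-1.20 ± 0.25) and CLMP (-0.73 ± 0.19) were lower. In A1331852 CRB3 was at 11.6 to 17.0 CPM in WT and 1.17 to 2.92 CPM in KO (-2.66 ± 0.28), ILDR2 was again lower (-1.58 ± 0.18), and ESAM (2.62 ± 0.45) and CXADR (2.03 ± 0.62) were higher.

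Of 23 scaffold and polarity genes tested in 786-O, 6 were lower and 2 higher in KO in DMSO, and 15 were not called, beside 10.2% lower and 8.29% higher among all genes. In A1331852 9 were lower, 1 was higher and 13 were not called, beside 15% and 13.2%. The medians of the 23 were -0.26 and -0.41, beside -0.02 and -0.01 over all genes. CGNL1, the paracingulin that binds ZO-1, went from 71.7 to 86.3 CPM in WT DMSO to 29.1 to 32.6 CPM in KO DMSO (-1.36 ± 0.11) and changed by -1.77 ± 0.11 in A1331852. PARD3, a core polarity scaffold, changed by -0.67 ± 0.11 and -0.87 ± 0.11, and the vesicle GTPase RAB13 by -0.79 ± 0.17 and -0.96 ± 0.17. PARD6A changed by -1.76 ± 0.37 in DMSO and PATJ by -1.16 ± 0.17 in A1331852. In A498 4 of 23 were lower and 3 higher, a share about that of all genes (30.2% called). Among them cingulin (CGN) was at 2.09 and 2.83 CPM in deficient and 12.1 and 16.6 CPM in add-back libraries (-2.57 ± 0.23), TJP3, which encodes ZO-3, changed by -3.40 ± 0.40, PARD3 by 0.62 ± 0.13 and YBX3 by 0.57 ± 0.12. The lines differed in their effect on PARD3 (-1.32 ± 0.17), CGN (3.83 ± 0.53), CGNL1 (-1.14 ± 0.18) and YBX3 (-1.19 ± 0.28), each called by edgeR.

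In KO cells 5 of the 23 scaffold genes were called with A1331852 against DMSO, 4 of them lower, beside 13.5% of all genes (7.08% lower). The 4 with the smallest adjusted p were PARD6B (-1.47 ± 0.28), PATJ (-1.01 ± 0.20), PARD3 (-0.52 ± 0.13) and CGNL1 (-0.48 ± 0.13). Of the membrane proteins CRB3 (-2.27 ± 0.32) and CXADR (-2.59 ± 0.53) were lower and CLMP (1.36 ± 0.23) and ESAM (2.67 ± 0.62) higher. In WT cells edgeR called 0 of the 44 genes tested on these lists and that of the transcription factors under A1331852, with 9 at an unadjusted p under 0.05, 2 calls by DESeq2 and 0 by limma voom.

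Transcription factors known to act on tight junction genes were taken as a further list. SNAI2, a repressor that binds E-boxes, was at 16.2 to 28.3 CPM in WT DMSO and 2.53 to 2.94 CPM in KO DMSO (-2.93 ± 0.27, edgeR adjusted p = 3.27e-05), while CEBPA (1.42 ± 0.38) and SNAI1 (0.64 ± 0.19) were higher in KO. These were the 3 called of 10 tested, beside 18.5% of all genes. In A1331852 5 of the 10 were called, beside 28.2% of all genes, with KLF4 higher (2.40 ± 0.30) and SNAI2 (-1.45 ± 0.25) and ELF3 (-1.51 ± 0.40) lower in KO. KLF4, an epithelial zinc finger factor, went from 4.29 to 7.29 CPM in KO DMSO to 52.6 to 74.6 CPM in KO A1331852 (3.94 ± 0.41), and its response differed between genotypes by 2.35 ± 0.42 (edgeR adjusted p = 0.0418). ELF3 (-2.86 ± 0.48) and SNAI2 (1.30 ± 0.34) also changed with A1331852 in KO cells. In A498 9 of 12 were called, beside 30.2% of all genes, 8 of them higher in deficient libraries: HNF4A, a regulator of proximal tubule genes, was at 9.98 and 10.7 CPM in deficient and 0.0552 and 0.107 CPM in add-back libraries (no fold is given, since the add-back libraries held 3 counts in all), with KLF5 (1.75 ± 0.18) higher and CEBPA lower (-1.24 ± 0.22). Of the 10 markers of renal carcinoma and tubular epithelium tested in A498 9 were higher in deficient libraries, beside 15.1% of all genes. All 11 summed to 5783 and 6055 CPM in deficient and 3888 and 3898 in add-back libraries. Most of the sum was VIM, with means of 3517 and 2230 CPM, while PAX2 was at 16.7 in deficient and 19.6 CPM in add-back cells. The part of these factors and markers in the CLDN2 and CLDN1 differences was not tested.

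The genes closest to each member across the 16 libraries were named by Pearson's r of log2 CPM over 17868 genes, with no test, since the libraries share lines, batches and treatments. CLDN4 was closest to THSD4 (r = 0.985) and CCRL2 (0.974), CLDN2 to PHKA2 (0.972) and LPCAT1 (0.970), and CLDN1 to ARHGEF2 (0.933) and SEMA3C (0.923). MARVELD2 was closest to PPCS (0.963) and PHKB (0.958), CLDN12 to CSGALNACT2 (0.963) and ITCH (0.958), and OCLN to GCHFR (0.959) and GNGT1 (0.946). CLDN3 was closest to C4A (0.958) and MFNG (0.956), TJP1 to ZNF81 (0.950) and the unnamed ENSG00000229167 (0.930), and F11R to GRAMD4 (0.918) and ENSG00000288670 (0.905). CLDN4 and MARVELD2 ran against each other, with r = -0.923 over the 16 libraries and -0.793 over the 12 of 786-O. CLDN2 and CLDN4 had r = 0.669 over the 16 but -0.575 over the 12, so r over both lines can differ from r within 786-O. OCLN had at most 15 counts in any 786-O library and CLDN3 at most 1 in any A498 library. Their neighbours are thus given with 1 of the lines near the floor.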

How the data were processed

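The authors deposited 1 table of counts per library: fragments counted per gene by featureCounts (1.5.0-p3, strand setting 2) from unique STAR alignments, over the exons of each gene name of GENCODE release 41, per the file headers. MultiQC 1.7 and DESeq2 are named in the submitters' processing notes. From these counts CPM and FPKM were computed on TMM-scaled totals. Tests used R 4.3.3 and edgeR 4.0.16 (TMM, low-count filter with a minimum count of 10, quasi-likelihood F test, Benjamini-Hochberg over all genes). The 12 libraries of 786-O were fitted with batch as a term, the 4 of A498 apart, and all 16 for the difference between lines. Alternatives used DESeq2 1.42.0, limma 3.58.1, other scaling, filters and libraries left out. The scripts were tested on simulated counts.

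The members and lists were chosen with earlier results of these data known. Named genes were all 10 members, SETD2, per list and comparison up to 4 called genes with the smallest adjusted p, and the 2 genes nearest to each tested member. Some genes of this rule are not reported here. Replicates were not stated to be separate cultures, so p-values measure the spread between these libraries, which may be technical. Precision comes from that spread, and the floor of 3 counts covers counting error only. Deviations from the group means correlated between same-numbered WT and KO libraries (r of 0.569 to 0.765 under DMSO, 0.271 to 0.506 under A1331852), as did unlike-numbered replicates 1 and 2 of DMSO (0.566 and 0.601), which cannot be told apart as pairs. Under A1331852 the unlike-numbered replicates 1 and 2 correlated too (0.222 and 0.130), so which of them pair is not established. Every same-numbered pair being over 0.1, replicate numbers were taken as pairs of genotypes within a treatment, from the data and not the labels. This pairing is an assumption, since those unlike-numbered pairs were over 0.1 too. Under DMSO the deviations also held the difference between batches 1 and 2. These pairs entered only the alternatives with a replicate block, and the main tests of 786-O had batch as their only further term. Between treatments the correlations were -0.0465 to 0.0542, and no pairing was used.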

Additional observations from a re-analysis of the deposited data

Results flagged for a closer look

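The effect of SETD2 loss on CLDN2 differed between the lines by -3.04 ± 0.68 on the log2 scale (786-O in DMSO minus A498, edgeR adjusted p = 0.00851), by a test of the difference itself. The mean CLDN2 level was 22.6 ± 6.22 CPM in WT DMSO and 23.9 ± 1.08 CPM in KO DMSO (SD, n = 3), and at 2.89 ± 0.347 CPM in deficient and 0.324 ± 0.145 CPM in add-back libraries (SD, n = 2). The A498 add-back libraries held 12 CLDN2 counts together, and line and batch 3 cannot be told apart.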

How the results depend on the processing

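Main counts of called members are given first, then the values that moved. KO against WT in DMSO had 2, which became 0 without a batch term, 5 in batch 2 alone, 1 without both DMSO replicates 3 (chosen after seeing the data) and 0 to 1 with each library left out. The 5 in batch 2 alone rest on the narrow spread of its replicates. KO against WT in A1331852 had 3, which became 5 without a filter, 6 with a replicate block of either kind, 6 without both A1331852 replicates 3 (chosen after seeing the data) and 2 to 5 with each library left out. A1331852 in WT had 0, which became 2 without a filter, 1 with DESeq2 and 4 with a replicate block. A1331852 in KO had 2, which became 0 in batch 1 alone, 4 without both A1331852 replicates 3 and 1 to 2 with each library left out. The difference of responses had 0, which became 2 without a filter, 1 with DESeq2, 2 with a replicate block of either kind, 3 without both A1331852 replicates 3 and 0 to 3 with each library left out. A498 had 2, which became 1 with a mean of at least 50 counts (CLDN2 is then not tested) and 1 to 3 with each library left out. The difference between lines had 1, which became 2 without a filter, 3 with DESeq2, 0 with limma voom, 4 with a replicate block and 0 to 1 with each library left out. No called value changed sign under any alternative run.

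With a replicate block the libraries of A498, and those of DMSO against A1331852, share only a number. In A498 r was 0.152 for like and -0.152 for unlike numbers. With 2 libraries a group these must be equal in size, so they cannot establish pairs. The block gave 3 calls in A498, adding TJP1 (adjusted p = 0.00434), and 3 for A1331852 in KO, adding CLDN12 (adjusted p = 8.57e-04). Where numbers were assumed to pair the genotypes, the block within treatment changed no call but those given beside the results. Plain library totals moved 7 of 60 group levels by more than their SD, and leaving out a library moved 0 of 160. With 1 to 15 counts a library for OCLN, and at most 5 for CLDN11, both were left out of the 786-O tests by the low-count filter.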
